A study of Mus musculus with 34 samples.

Results

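The genes described here encode the nuclear parts of the mitochondrial respiratory chain and ATP synthase in tracheal epithelium of Gprc5a-/- mice before and after exposure to a tobacco carcinogen. Members were the rows of the knockout count table whose symbol starts with Nduf plus a, b, c, s or v, with Uqcr, with Cox plus a digit from 4 to 8, or with Atp5, together with Sdha, Sdhb, Sdhc, Sdhd and Cycs. This gave 93 of the 24223 genes in the table, and 89 of them had enough counts to be tested among 14847 genes. The 3 forms of complex IV subunits known from muscle (Cox6a2, Cox7a1 and Cox8b) were kept apart, which left 90 members, of which 86 were tested. The untested members were the isoforms Cox4i2, Ndufa4l2, Cox7b2 and Cox8c.

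Gprc5a encodes a receptor of the lung epithelium, and mice without it are prone to lung tumours. GEO's age label is 6 to 8 weeks. Mice received NNK, a nitrosamine found in tobacco, at 50 mg/kg by intraperitoneal injection 3 times a week for 8 weeks. Tracheas were brushed before exposure (baseline, n = 6 mice), at its end (t0, n = 6), and 2 months (t2, n = 5), 4 months (t4, n = 6) and 6 months later (t6, n = 5), each mouse giving 1 library. All 5 groups carried the knockout. A further 6 baseline libraries came from unexposed wild-type mice. Older knockout mice without NNK were not analysed here. Age therefore rose along with the time since exposure, and the p-values judge differences between groups against the spread between these mice.

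Poly-A RNA was sequenced on an Ion Proton, and the deposited estimated counts totalled between 15.63 and 37.61 M per knockout library. Levels are given as CPM, counts relative to the library total, scaled by TMM, a method that sets libraries on a common scale by the bulk of their genes, and differences as log2 fold changes. Gprc5a itself lay between 0.115 and 3.11 CPM in 27 knockout libraries and at 7.70 in t2 animal 339. The tracheal label fitted the epithelial markers: the ciliated cell regulator Foxj1 lay between 152 and 1441 CPM, and 12 club cell markers summed to between 27303 and 122774 CPM. In bulk RNA, fewer cells of a type and less RNA per cell cannot be told apart.

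The respiratory chain passes electrons from NADH through complex I, or from succinate through complex II, to ubiquinone, then through complex III, cytochrome c and complex IV to oxygen. Complexes I, III and IV pump protons, and ATP synthase lets them flow back through its membrane part (FO) to drive the catalytic head (F1). Apart from complex II, each complex also holds proteins made from the mitochondrial genome, whose genes are not among the members. In the airway, ciliated cells are rich in mitochondria, which power the beating of cilia.

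After exposure many members fell and few rose. At t0, 28 of 86 members fell (32.6%) and 5 rose (5.81%), where 22.3% of all genes tested fell, 23.3% rose and 45.5% changed either way (edgeR quasi-likelihood test, adjusted p under 0.05). At t2, 23 fell and 2 rose, against 8.73% and 11.2% of all genes (19.9% together). At t4, 20 fell and 0 rose, against 9.56% and 10% (19.6% together). At t6, 5 fell and 0 rose, against 4.29% and 4.54% (8.83% together), so the share that fell at t6 was close to the background. The median log2 fold change of the 86 members was -0.33, -0.20, -0.31 and -0.15 at t0, t2, t4 and t6, beside 0.02, 0.02, 0.01 and -0.01 for all genes tested. These 4 comparisons share the 6 baseline libraries. Every library of the exposed group lay below every baseline library for 10 members at t0 (12.8% of all genes did so) and 14 at t2 (6.34%). The same held for 11 members at t4 (7.27%) and 3 at t6 (4.75%). Every library lay above for 1 member at t0 (13.1%) and 2 at t2 (5.59%), while 0 did so at t4 (5.75%) or t6 (4.66%).

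**Figure D1:**
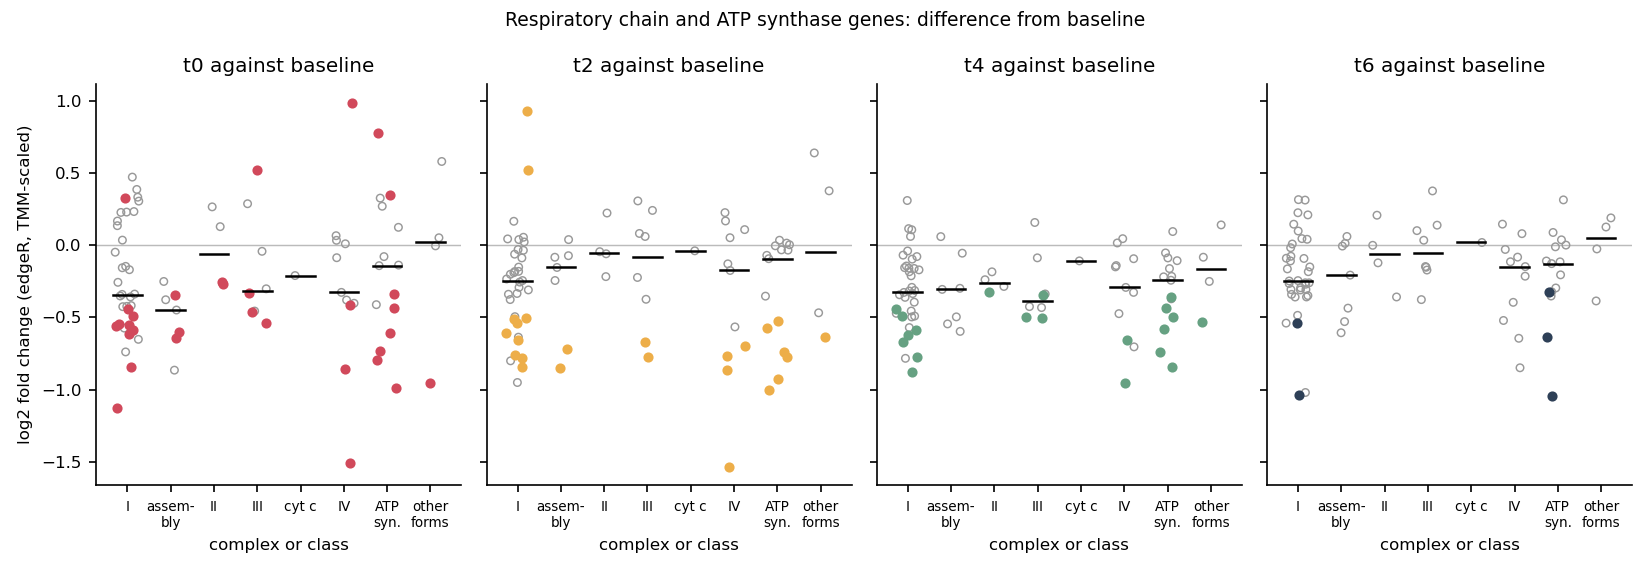
Each point is 1 of the 86 members tested, placed by complex or class (x axis) and by its log2 fold change from baseline (y axis), with 1 panel per time group. Filled points passed the edgeR test and black bars mark the class medians; most filled points lie below 0, and Cox6c at -1.51 and -1.54 is the lowest at t0 and t2.

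A few libraries stood apart for these genes, and the counts rest in part on them. Baseline animal 356 had the highest value of its group for 55 of 86 members (64.0%, against 24.9% of all genes), and baseline animal 344 for 24 (27.9%, against 23.1%). At t6, animal 368 was lowest for 58 members (67.4%, against 29.8%) and animal 365 highest for 44 (51.2%, against 19.0%). At t4, animal 335 was lowest for 38 members (44.2%, against 12.4%). An alternative chosen after seeing the data left out baseline animals 344 and 356 and t6 animal 368. In it 12 members fell (14.0%) and 9 rose (10.5%) at t0, both below the 19.3% and 20.1% of all genes. In that setting 11 fell (12.8%) and 2 rose (2.33%) at t2, beside 4.86% and 6.78% of all genes. At t4, 8 fell (9.30%) and 0 rose, beside 5.25% and 5.10%. At t6, 0 fell and 1 rose (1.16%), beside 2.16% and 2.28%, and the median turned to 0.07. Leaving out baseline animal 356 alone gave 15 falls and 8 rises at t0, 16 calls at t2 and 12 at t4, and leaving out t4 animal 340 gave 12 at t4. At t6 the count was 1 without baseline animal 344, 2 without baseline 356 or t6 349, 3 without t6 341 or 368, and 8 without t2 animal 339. The shares of all genes called in these fits without 1 library are not given here. A change among the members therefore cannot be told from a change in calls among all genes.

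The balance of rises and falls at t0 also depended on the scaling. Scaling by library totals alone moved the median of all genes from 0.02 to 0.19 at t0 and from 0.02 to 0.12 at t2. Under it 7 members fell (8.14%) and 12 rose (14.0%) at t0, both below the 12.9% and 29.2% of all genes. That scaling gave 11 falls (12.8%) and 2 rises at t2, where 3.39% of all genes fell. At t4 it gave 7 falls (8.14%), beside 4.12%. With a correction for transcript length, 22 fell (25.6%) and 12 rose (14.0%) at t0, beside 22.6% and 23.3% of all genes. It gave 17 falls (19.8%) at t2 and 15 (17.4%) at t4, beside 9.07% of all genes at each time. With limma voom and quality weights 30 fell (34.9%) and 11 rose (12.8%) at t0, beside 26.5% and 27.9% of all genes. The median of the 86 members lay below that of all genes at t0, t2 and t4 in each of these settings.

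Markers of several cell types also moved. Of all genes tested, 22.3%, 8.73%, 9.56% and 4.29% fell at t0, t2, t4 and t6. Those that rose were 23.3%, 11.2%, 10% and 4.54%. All 23 ciliated cell markers in the table fell, their sum going from 7822 to 9430 CPM at baseline to 2173 to 6136 at t0, with 7514 to 12701 at t2. At t4 the sum was 9585 to 12923 CPM, and at t6 it was 8811 to 10780. Of 12 club cell markers, 10, 6, 8 and 6 fell at t0, t2, t4 and t6, and 2, 1, 1 and 1 rose. Of 11 basal cell markers, 8, 6, 4 and 1 rose at those times, and 0, 1, 2 and 1 fell. Of 10 tested markers of squamous epithelium, 6 rose at t0 and their sum went from 91.1 to 312 CPM at baseline to 1753 to 4759. Of 8 tested tuft cell markers, 5, 5, 4 and 6 fell at t0, t2, t4 and t6, and 2, 0, 0 and 0 rose. Immune cell markers rose at t0: 10 of 11 for macrophages (1 fell), 7 of 9 for T and NK cells and 3 of 4 for B cells. The macrophage sum overlapped baseline at t0 (2110 to 6926 CPM, against 3230 to 8081). The sum for T and NK cells was 3.05 to 21.9 CPM at baseline and 14.1 to 175 at t0, and that for B cells 1.13 to 3.57 and 10.6 to 60.7. Of 7 smooth muscle markers, 0, 2, 4 and 5 rose at t0, t2, t4 and t6. The part of these shifts in the changes of respiratory chain genes was not tested. The club and ciliated lists had no marker at 0 in a whole group.

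Promoters of 77 of the 93 members were found in RefSeq (GRCm38.p6), and a window from 220 bases before to 30 bases from the start was searched on both strands for motifs of factors that act on mitochondrial genes. The NRF1 motif (its palindromic GC-rich core) stood in 17 of 75 members other than muscle forms (22.7%) and in 4.32% of 27025 promoters. It stood in 8 of the 35 members that fell in at least 1 comparison with baseline (22.9%) and in 9 of the 40 that did not (22.5%). The ETS motif CCGGAAG stood in 15 members (20%, against 8.33% of promoters), with 7 of 35 and 8 of 40 on either side. The YY1 motif AAGATGGC stood in 3 (4%, against 2.16%). Member windows used the start nearest the upstream edge of the gene in the count table. The 27025 promoters used the start with the lowest coordinate of each gene, so these shares rest on unlike choices. In 59 of the 77 member windows, the bases from the start lay in a transcript of the gene. A match is a description of letters, not a bound site. The windows below belong to members that carry the results: 3 that fell (Atp5k, Uqcrh and Cox7b), 2 that rose at t0 (Uqcrc1 and Ndufa4) and the muscle form Cox8b. Capitals mark a motif, read on either strand, and lower case the rest. Atp5k held an NRF1 and an ETS match, Uqcrh an ETS match, Uqcrc1 an NRF1 match, and Cox7b and Ndufa4 none of the motifs. The Cox8b window held 2 matches to CAGCTG, the E-box of the muscle factor MyoD, which stood in 5 of the 75 members (6.67%) and in 13.6% of promoters. The AT-rich motif of the muscle factor MEF2 stood in 0 of 75 and in 0.137%. Of the other muscle forms, the Cox7a1 window held none of the motifs, and no promoter was found for Cox6a2.
Atp5k, chr5:108434370-108434619, minus strand: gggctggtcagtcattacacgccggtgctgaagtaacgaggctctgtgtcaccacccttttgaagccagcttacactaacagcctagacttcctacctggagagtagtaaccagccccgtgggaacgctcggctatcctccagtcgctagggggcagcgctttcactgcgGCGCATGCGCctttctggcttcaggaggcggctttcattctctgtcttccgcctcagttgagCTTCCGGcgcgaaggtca
Uqcrh, chr4:116075041-116075290, minus strand: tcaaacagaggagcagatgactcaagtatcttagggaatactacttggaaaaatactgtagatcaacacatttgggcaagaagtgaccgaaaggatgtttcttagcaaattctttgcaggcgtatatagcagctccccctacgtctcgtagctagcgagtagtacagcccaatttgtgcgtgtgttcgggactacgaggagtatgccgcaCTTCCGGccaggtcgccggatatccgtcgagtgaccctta
Cox7b, chrX:106015480-106015729, plus strand: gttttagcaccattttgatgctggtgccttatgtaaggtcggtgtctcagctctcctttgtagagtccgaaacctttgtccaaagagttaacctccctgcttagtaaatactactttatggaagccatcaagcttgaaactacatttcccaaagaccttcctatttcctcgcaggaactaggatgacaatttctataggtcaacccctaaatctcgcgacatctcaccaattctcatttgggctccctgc
Uqcrc1, chr9:108936428-108936677, plus strand: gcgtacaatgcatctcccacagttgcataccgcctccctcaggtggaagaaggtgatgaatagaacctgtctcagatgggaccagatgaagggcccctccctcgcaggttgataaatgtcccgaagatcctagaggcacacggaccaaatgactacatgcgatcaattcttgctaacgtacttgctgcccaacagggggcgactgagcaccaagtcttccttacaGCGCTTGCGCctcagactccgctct
Ndufa4, chr6:11907421-11907670, minus strand: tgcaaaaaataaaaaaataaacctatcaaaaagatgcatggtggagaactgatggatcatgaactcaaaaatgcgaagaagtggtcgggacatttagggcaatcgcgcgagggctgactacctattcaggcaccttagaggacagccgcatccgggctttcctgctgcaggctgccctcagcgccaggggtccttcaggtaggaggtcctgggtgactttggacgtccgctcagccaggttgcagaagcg
Cox8b, chr7:140900417-140900666, minus strand: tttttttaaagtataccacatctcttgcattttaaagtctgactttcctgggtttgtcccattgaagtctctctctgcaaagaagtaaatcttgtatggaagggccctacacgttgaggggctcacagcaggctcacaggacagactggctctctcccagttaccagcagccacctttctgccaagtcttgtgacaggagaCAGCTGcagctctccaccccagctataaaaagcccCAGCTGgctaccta

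In unexposed wild-type airway, levels per transcript length were given by the authors as TPM. The highest was Atp5b, the catalytic beta subunit of ATP synthase, at 587 ± 106 TPM (SD, n = 6). It was followed by Cox4i1, the large nuclear subunit of complex IV, at 389 ± 122, and Uqcr11, a small subunit of complex III, at 343 ± 105. The ranges of Cox4i1 and Uqcr11 overlapped (198 to 500 and 207 to 475 TPM). Median TPM was 202 for complex IV subunits, 173 for ATP synthase, 167 for complex III, 90.0 for complex I, 78.6 for complex II and 7.83 for complex I assembly factors. Cycs, which encodes cytochrome c, was listed at 5.54 ± 6.75 TPM, with single libraries from 0.35 to 19.1. Its transcript model is long (2367 bases, against a median of 576 for members). Cox7b2 and Cox8c were listed at 0. Wild-type and knockout values come from separate tables, and genotypes were not tested against each other.

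**Figure D2:**
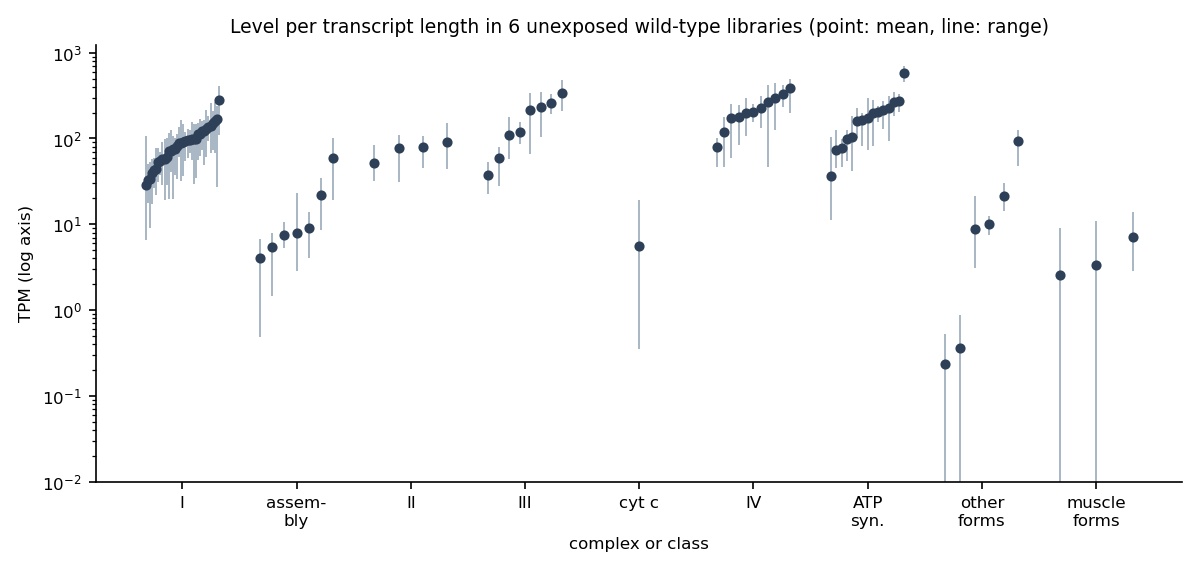
Points give the mean TPM (log axis) of each member in the 6 unexposed wild-type libraries, ordered within its class, and lines the range over libraries; a line that reaches the bottom includes a library at 0. Atp5b lies highest at 587 TPM, and assembly factors have a median of 7.83; Cox7b2 and Cox8c, at 0, are not drawn.

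Complex I is the largest assembly of the chain, and its core subunits carry the flavin and iron-sulphur clusters that move electrons from NADH. Of 7 core subunits tested, 0 rose and 1 fell at t0, 1 rose and 1 fell at t2, 2 fell at t4 and 0 changed at t6. The share that fell at t0 was 14.3%, below the 22.3% of all genes. At t2 and t4 it was 14.3% and 28.6%, above the 8.73% and 9.56% of all genes. The subunit that fell at t0 and t2 was Ndufs1 (chromosome 1, 63143592 to 63176823, mm10), the largest iron-sulphur protein of the electron entry arm. It measured 53.7 to 68.4 CPM at baseline (median 56.9) and 33.7 to 49.7 at t0 (median 40.5). At t2 the 5 libraries read 33.5, 22.1, 48.0, 33.7 and 38.9 CPM, and at t4 the range was 33.8 to 41.3 (median 37.6). No library of t0, t2 or t4 reached the lowest baseline value. The log2 fold change was -0.55 (SE 0.13, edgeR adjusted p = 0.00147) at t0, -0.76 (0.14, 0.000694) at t2 and -0.67 (0.14, 0.00115) at t4. At t6 the libraries read 53.2, 42.7, 52.4, 44.4 and 55.7 CPM, overlapping baseline, with -0.27 (adjusted p = 0.267). Under library totals the t0 call was lost (adjusted p = 0.114). Ndufs1 overlaps the antisense gene Ino80dos, and whether counting used strand is not given.

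Ndufs7, which holds the last iron-sulphur cluster before ubiquinone, was higher at t2. Baseline libraries read 45.8 to 61.4 CPM (median 50.2) and the t2 libraries 76.9, 79.0, 67.6, 70.6 and 82.8. The groups did not overlap, and the log2 fold change was 0.52 (SE 0.16, edgeR adjusted p = 0.0214), lost without baseline animal 343 (0.0501). Ndufs8, another carrier of iron-sulphur clusters, fell at t4 by 0.59 on the log2 scale (adjusted p = 0.0195). Ndufv1, which binds NADH and flavin, was not called against baseline: its differences were 0.33, 0.06, -0.21 and -0.09 at t0, t2, t4 and t6. Ndufs3 and Ndufv2 were not called at any of the 4 times either, and ranged from -0.46 for Ndufv2 at t4 to 0.31 for Ndufs3 at t6.

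The supernumerary subunits of complex I surround the core and are needed for its assembly and stability. Of 29 tested, 9 fell and 1 rose at t0, 7 fell and 1 rose at t2, 5 fell and 0 rose at t4, and 2 fell and 0 rose at t6. Falls thus made up 31%, 24.1%, 17.2% and 6.9%, beside 22.3%, 8.73%, 9.56% and 4.29% of all genes. Their median log2 fold change was -0.36 at t0. The fall with the smallest p at t0 was that of Ndufb11, a subunit of the membrane arm. It read 98.8 to 152 CPM at baseline (median 103), 50.3 to 114 at t0 (median 70.1), 72.3, 86.9, 69.9, 79.1 and 74.4 at t2, and 74.0 to 94.0 at t4 (median 79.8). The t2 and t4 libraries all lay below baseline, while t0 overlapped it. Its log2 fold change was -0.59 (SE 0.15, edgeR adjusted p = 0.00178) at t0, and under library totals the adjusted p there was 0.0916. Ndufb11 lies beside Rbm10 with an overlap of 63 bases.

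Ndufa6 and Ndufa5, subunits of the arm that reaches into the matrix, fell at t0 and t2. Ndufa6 read 60.4 to 104 CPM at baseline (median 71.4) and 36.1, 33.6, 47.5, 57.3 and 43.9 at t2. No t2 library overlapped baseline, and the fall was 0.85 on the log2 scale (SE 0.18, edgeR adjusted p = 0.00208). Ndufa6 also fell by 0.49 at t0 and 0.62 at t4, and Ndufa5 by 0.54 at t0 and 0.78 at t2. Ndufs4, an accessory subunit whose loss causes a severe mitochondrial disease, had a baseline median of 42.0 CPM and went to 24.7 to 36.6 at t0 (median 31.2), below every baseline library. Its log2 fold change at t0 was -0.56 (0.14, 0.00247), and later it was not called (-0.33, -0.31 and -0.26).

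Ndufa9, a subunit near the ubiquinone site, was lowest at t4. It read 47.3 to 78.7 CPM at baseline (median 54.1), 27.2 to 40.7 at t4 (median 34.6) and 42.8, 38.3, 49.9, 42.3 and 30.4 at t6. All t4 libraries lay below baseline, with a log2 fold change of -0.78 (SE 0.15, edgeR adjusted p = 0.000644), and t6 overlapped it, with -0.54 (0.15, 0.0266). The t6 call was lost without baseline animal 344 or 356 or t6 animal 349 or 368 (adjusted p up to 0.0834). Ndufa10, an accessory subunit of complex I, went from 59.8 to 87.2 CPM at baseline (median 65.4) to 41.6 to 57.6 at t4 (median 48.3), again without overlap. It fell by 0.49 on the log2 scale (SE 0.12, adjusted p = 0.00568), and under library totals the adjusted p was 0.0769.

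Ndufb4 and Ndufa1, small membrane subunits, had one high baseline library. Ndufb4 read 21.5 to 69.4 CPM at baseline (median 25.7), where animal 344 held the 69.4 and the next library 34.3. The t6 libraries read 19.1, 16.8, 20.2, 18.7 and 6.11, all below baseline. The log2 fold change at t6 was -1.04 (SE 0.29, edgeR adjusted p = 0.0245), and the call was lost without baseline animal 344 (-0.68, adjusted p = 0.099) or t6 animal 368. Ndufa1 fell at t0 by 1.13 (adjusted p = 0.00479), from a baseline median of 24.6 CPM, with animal 344 at 70.4, to a median of 14.2.

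Rises among the supernumerary subunits were few. Ndufa8, a protein of the intermembrane space side, read 40.7 to 51.9 CPM at baseline (median 42.7) and 48.1 to 63.4 at t0 (median 55.6). The groups overlapped only through baseline animal 356, and the log2 fold change was 0.33 (SE 0.10, edgeR adjusted p = 0.0101). Ndufc2, a membrane arm subunit, read 40.9 to 61.7 CPM at baseline (median 48.7) and 106, 64.9, 98.1, 117 and 89.6 at t2. All 5 t2 libraries lay above baseline, with a log2 fold change of 0.93 (0.28, 0.0211), lost without t2 animal 358 (0.0533). Other subunits called once or more against baseline were Ndufa12, Ndufb5, Ndufb6, Ndufa2 and Ndufv3, with falls between 0.51 and 0.66 on the log2 scale. The 14 supernumerary subunits without a call were Ndufa3, Ndufa7, Ndufa11, Ndufa13, Ndufab1, Ndufb2, Ndufb3, Ndufb7, Ndufb8, Ndufb9, Ndufb10, Ndufc1, Ndufs5 and Ndufs6. Among them, Ndufab1 read 9.69 to 13.7 CPM at baseline. All its t0 libraries (5.24 to 8.58) and t6 libraries (1.84 to 8.31) lay below that range, and t2 animal 339 read 0.194.

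The 7 tested assembly factors of complex I build the complex but leave it once mature. At t0, 3 fell: Ndufaf3 by 0.64, Ndufaf5 by 0.60 and Ndufaf7 by 0.35 on the log2 scale (edgeR adjusted p = 0.023, 0.0302 and 0.0306). At t2, Ndufaf5 fell by 0.85 (0.0127) and Ndufaf1 by 0.72 (0.0287), and 0 passed at t4 or t6. Falls made up 42.9% at t0 and 28.6% at t2, beside 22.3% and 8.73% of all genes. Ndufaf5, a hydroxylase that modifies a core subunit, was low throughout, at 4.67 to 8.47 CPM at baseline and 3.08, 2.14, 4.09, 3.82 and 3.72 at t2, where no library reached baseline. Ndufaf2, Ndufaf4 and Ndufaf6 were not called. Ndufaf6 read 0.0324 CPM in t2 animal 339 and 3.65 to 5.20 in the other t2 libraries.

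Complex II, succinate dehydrogenase, also works in the citric acid cycle, and 2 of its 4 genes were called. At t0, 2 fell (50%, beside 22.3% of all genes), and at t4, 1 fell (25%, beside 9.56%). Sdha, the flavoprotein, read 212 to 284 CPM at baseline (median 231) and 157 to 222 at t0 (median 205). The groups overlapped, and the fall of 0.26 on the log2 scale passed the test (SE 0.10, edgeR adjusted p = 0.0321). Sdhd, a membrane anchor, read 66.1 to 90.8 CPM at baseline (median 76.5), 55.7 to 78.1 at t0 (median 60.6) and 56.3 to 79.8 at t4 (median 59.3). It fell by 0.27 at t0 (0.0374) and 0.33 at t4 (0.0279), with overlap at both times. Sdhb, the iron-sulphur subunit, read 91.9 to 125 CPM at baseline and 93.2 to 150 at t0 and was not called (0.27, 95% interval -0.02 to 0.55). Sdhc, the other anchor, read 79.5 to 113 CPM at baseline and was not called at any time (0.13 at t0, -0.36 at t6).

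Complex III hands electrons from ubiquinol to cytochrome c. Of its 8 tested subunits, 3 fell and 1 rose at t0, 2 fell at t2, 3 fell at t4 and 0 changed at t6. Falls made up 37.5%, 25% and 37.5% at t0, t2 and t4, beside 22.3%, 8.73% and 9.56% of all genes. The rise at t0 was 12.5%, beside 23.3%. Uqcrh (chromosome 4, 116066965 to 116075071), the hinge protein beside cytochrome c1, read 94.2 to 151 CPM at baseline (median 119) and 75.4 to 107 at t0 (median 87.1). It read 70.7, 69.5, 53.3, 78.9 and 82.8 at t2, all below baseline, and 71.0 to 105 at t4 (median 88.9). The log2 fold change was -0.46 (SE 0.13, edgeR adjusted p = 0.00439) at t0, -0.77 (0.14, 0.000418) at t2 and -0.50 (0.13, 0.00814) at t4. At t6 the values were 100, 105, 123, 110 and 101, inside the baseline range, with -0.17 (adjusted p = 0.485).

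The core proteins of complex III moved apart at t0. Uqcrc1 (chromosome 9, 108936648 to 108949642) read 84.0 to 109 CPM at baseline (median 102) and 101 to 167 at t0 (median 145). Its rise of 0.52 (SE 0.11, edgeR adjusted p = 0.000459) came with slight overlap, and at t4 its range was 75.1 to 111. Uqcrc2 read 83.3 to 136 CPM at baseline (median 97.4), 69.7 to 90.4 at t0 (median 81.8) and 64.8 to 79.8 at t4 (median 71.2). All t4 libraries lay below baseline, and it fell by 0.33 at t0 (0.0143) and by 0.50 at t4 (0.11, 0.00221; under library totals 0.0688). The Rieske iron-sulphur protein Uqcrfs1 fell at t4 by 0.35 (0.0225), Uqcrb at t2 by 0.67 (0.045), and Uqcr11 at t0 by 0.54 (0.0115). Uqcr10 and Uqcrq were not called. Cycs, the mobile carrier, read 37.4 to 57.4 CPM at baseline and 33.1 to 47.4 at t0, with overlap and a log2 fold change of -0.21 (95% interval -0.50 to 0.08).

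**Figure D3:**
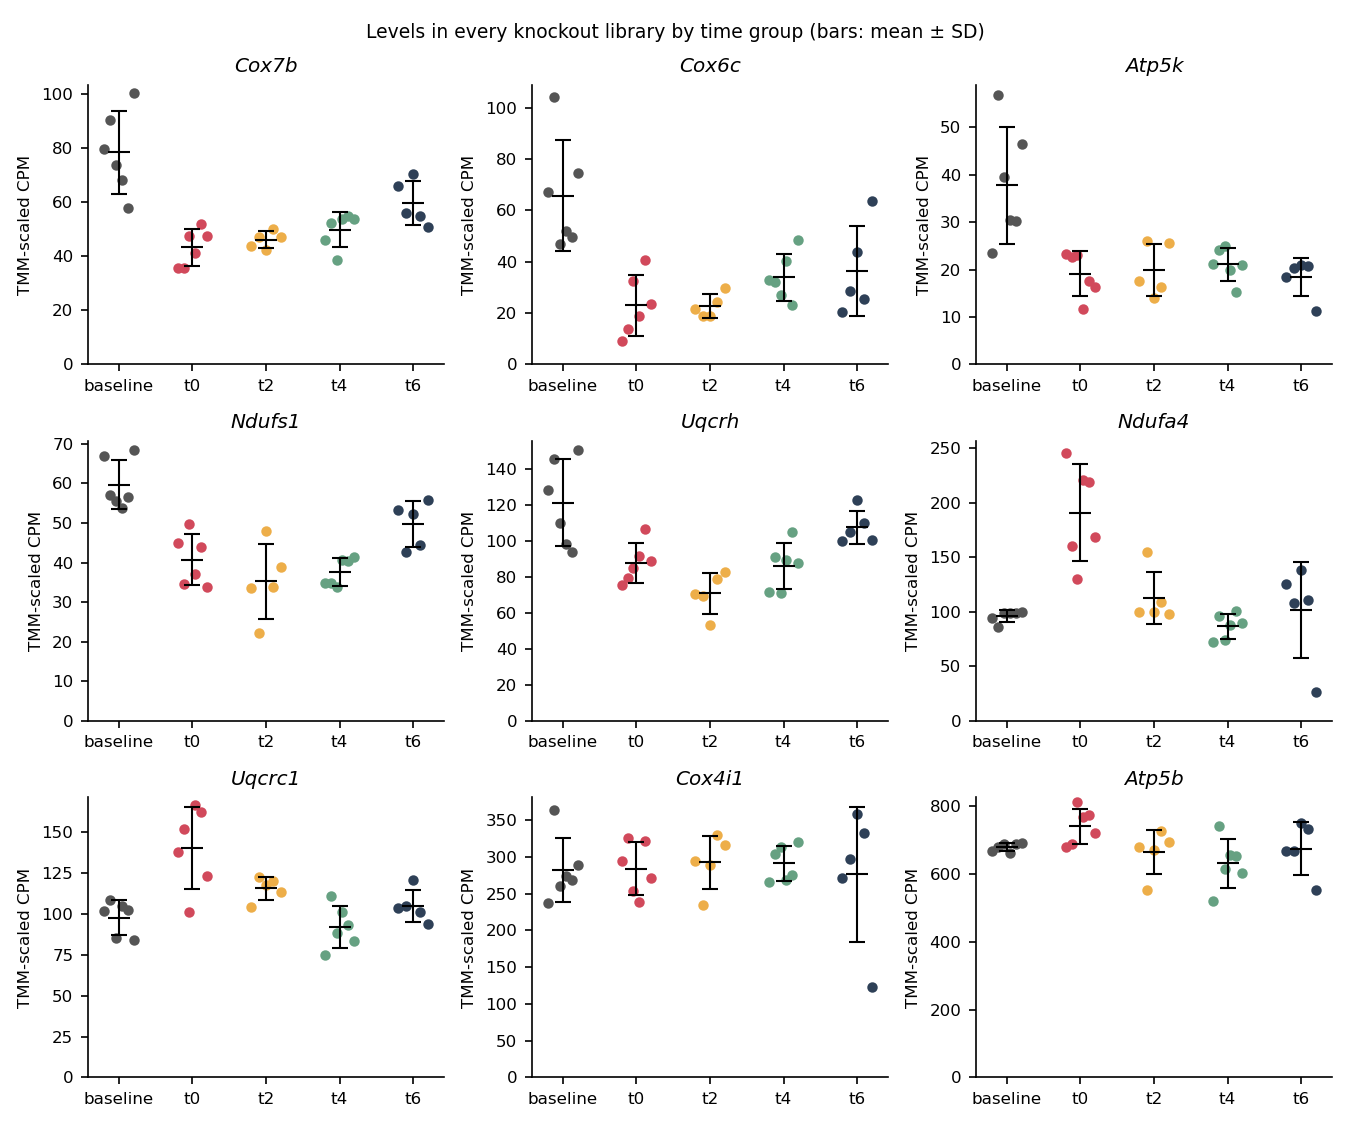
TMM-scaled CPM (y axis, from 0) of 9 members in every knockout library by time group (x axis), with mean and SD as bars. Cox7b, Cox6c, Atp5k, Ndufs1 and Uqcrh lie lower at t0 and t2 than at baseline, Ndufa4 and Uqcrc1 peak at t0, and the ranges of Cox4i1 and Atp5b overlap baseline in every group.

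Complex IV, cytochrome c oxidase, reduces oxygen. Of 11 tested subunits, 3 fell and 1 rose at t0, 4 fell at t2, 2 fell at t4 and 0 changed at t6. At t0 the shares were 27.3% and 9.09%, beside 22.3% and 23.3% of all genes, so the falls at t0 were near the background. At t2 and t4 the falls made up 36.4% and 18.2%, beside 8.73% and 9.56% of all genes. Cox7b (chromosome X, 106015700 to 106022451), a small membrane subunit, had the smallest p of the non-muscle members over the 5 groups (F test, edgeR adjusted p = 1.22e-05). Its libraries read 57.9 to 100 CPM at baseline (median 76.7), 35.8 to 52.1 at t0 (median 44.4) and 38.5 to 54.8 at t4 (median 53.0). At t2 they read 43.7, 47.1, 42.3, 50.2 and 47.2. No library of t0, t2 or t4 reached baseline. Log2 fold changes were -0.86 (SE 0.13, adjusted p = 4.79e-06), -0.77 (0.13, 0.000392) and -0.65 (0.13, 0.000777) at t0, t2 and t4. At t6, with 65.9, 56.0, 70.4, 55.0 and 50.8 CPM, the difference of -0.40 missed the threshold (0.0594).

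Cox6c (chromosome 15, 35931976 to 35938247), a nuclear subunit of the membrane part, had the largest fall by fold among the called members at t0 and t2. It read 46.7 to 104 CPM at baseline (median 59.6), 9.20 to 40.9 at t0 (median 21.2) and 21.7, 18.9, 18.9, 24.2 and 29.9 at t2. Neither group reached baseline. The log2 fold change was -1.51 (SE 0.30, edgeR adjusted p = 0.000197) at t0 and -1.54 (0.32, 0.0017) at t2. At t4 it read 23.2 to 48.5 CPM (median 32.4), just overlapping baseline, with -0.95 (0.30, 0.0247). At t6 the libraries spread over 20.5, 28.8, 43.8, 25.7 and 63.8 CPM, and -0.85 was not called (0.0888).

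Ndufa4, first described with complex I and now counted to complex IV, went the other way at t0. Its libraries read 86.1 to 99.6 CPM at baseline (median 98.8) and 130 to 246 at t0 (median 194). Every t0 library lay above every baseline library, and the log2 fold change was 0.99 (SE 0.23, edgeR adjusted p = 0.000905). At t2 it read 100, 155, 99.6, 109 and 98.3, at t4 72.1 to 100 (median 88.7), and at t6 126, 108, 138, 110 and 26.5. These groups overlapped baseline and were not called (0.23, -0.15 and 0.08).

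Cox5a and Cox5b, soluble subunits of complex IV, fell at t2 by 0.87 (edgeR adjusted p = 0.0046) and 0.70 (0.0098), and Cox7a2 fell at t0 by 0.42 (0.033). Cox4i1 read 238 to 364 CPM at baseline (median 271) and 238 to 326 at t0 (median 283). Its log2 fold change at t0 was 0.01 (95% interval -0.31 to 0.33). Cox6a1 stood at 0.03 (-0.23 to 0.30), Cox6b1 at 0.07 (-0.42 to 0.56) and Cox8a at -0.09 (-0.40 to 0.23), so changes in either direction within those intervals cannot be told from none. Cox7c was not called, although all t2 libraries (22.2 to 29.8 CPM) and all t4 libraries (18.5 to 28.1) lay below its baseline range of 32.3 to 48.4.

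ATP synthase was counted in 2 parts, the F1 head and the FO part with its stalk. Of 5 F1 subunits, 1 fell and 1 rose at t0, 1 fell at t2, 2 fell at t4 and 1 fell at t6. Of 10 FO and stalk subunits, 5 fell and 1 rose at t0, 5 fell at t2, 4 fell at t4 and 2 fell at t6. Falls made up 20%, 20%, 40% and 20% for F1 and 50%, 50%, 40% and 20% for FO and stalk. Of all genes, 22.3%, 8.73%, 9.56% and 4.29% fell at those times. The difference between both parts was not tested. The catalytic Atp5b read 661 to 692 CPM at baseline and 678 to 811 at t0, and was not called (0.12, 95% interval -0.06 to 0.31). The other subunit of the catalytic ring, Atp5a1, read 452 to 490 CPM at baseline (median 464) and 308 to 409 at t4 (median 377). All t4 libraries lay below baseline, with a log2 fold change of -0.36 (SE 0.10, edgeR adjusted p = 0.0107). At t6, with 364, 363, 417, 456 and 277 CPM, it was -0.32 (0.10, 0.047), a call lost in 19 of 28 fits that left out 1 library (adjusted p up to 0.117).

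Atp5c1, the rotating central shaft, read 90.5 to 163 CPM at baseline (median 114) and 56.3 to 94.6 at t0 (median 78.8). It read 60.9, 64.6, 72.6, 63.1 and 78.5 at t2 and 55.6 to 83.6 at t4 (median 70.8), all below baseline. Its log2 fold changes were -0.61 (SE 0.16, edgeR adjusted p = 0.00311), -0.78 (0.17, 0.0025) and -0.74 (0.16, 0.00222). At t6 it read 84.1, 72.9, 98.3, 91.1 and 158 CPM, with -0.21 (0.509). Atp5d, a subunit at the foot of the shaft, read 135 to 176 CPM at baseline (median 158) and 167 to 222 at t0 (median 202), overlapping at the edge. It rose at t0 by 0.34 (0.11, 0.0122), and Atp5e, its neighbour, was not called.

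Atp5k (chromosome 5, 108433253 to 108434379), the small membrane subunit e, was lower at every later time. Baseline libraries read 23.4 to 56.8 CPM (median 35.0), t0 libraries 11.6 to 23.2 (median 20.1) and t4 libraries 15.3 to 25.1 (median 21.1). At t2 they read 17.5, 26.1, 14.0, 16.3 and 25.6, and at t6 18.5, 20.3, 20.9, 20.7 and 11.4. The t0 and t6 libraries all lay below baseline, and t2 and t4 overlapped its lowest library. Log2 fold changes were -0.99 (SE 0.21, edgeR adjusted p = 0.000419), -0.93 (0.22, 0.0049), -0.84 (0.21, 0.00645) and -1.04 (0.22, 0.00348). Without baseline animals 344 and 356 and t6 animal 368, the t4 and t6 calls were lost (-0.55, adjusted p = 0.0729, and -0.62, 0.106). With the length correction the t4 call was lost as well (-0.52, 0.0663).

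Atp5h and Atp5j, subunits d and F6 of the stalk that holds the head in place, fell together at t0 and t2. Atp5h read 79.8 to 164 CPM at baseline (median 90.6), 48.5 to 86.6 at t0 (median 55.2) and 46.5, 49.0, 43.0, 63.5 and 65.3 at t2. Only t2 was wholly below baseline. Its log2 fold change was -0.80 (SE 0.19, edgeR adjusted p = 0.000994) at t0 and -0.58 (0.19, 0.0281) at t4. At t2 it fell by 1.003 (0.20, 0.00107). At t6 it was -0.63 (0.20, 0.0413), lost without baseline 344 or 356 or t6 341, 349, 366 or 368 (adjusted p up to 0.126). Atp5j read 79.9 to 125 CPM at baseline (median 90.0), 44.1 to 74.5 at t0 (median 59.7) and 55.4, 40.7, 55.7, 68.7 and 71.6 at t2, with no overlap at either time. It fell by 0.73 (0.15, 0.000356) and 0.74 (0.16, 0.00256), and was not called at t4 (-0.37) or t6 (-0.13). Atp5j shares 503 bases with Gabpa, the neighbouring gene.

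Of the remaining FO subunits, Atp5f1, the membrane anchor of the stalk, fell by 0.44 at t0, 0.52 at t2 and 0.50 at t4 (edgeR adjusted p = 0.0208, 0.0223 and 0.0223). The ring of c subunits is encoded by 3 genes for the same mature protein. Of these, Atp5g1 read 35.6 to 52.9 CPM at baseline (median 43.5) and 28.3 to 34.5 at t4 (median 32.3), below baseline in every library. It fell by 0.34 at t0 (0.035) and 0.43 at t4 (0.0213). Atp5g2 read 84.5 to 115 CPM at baseline (median 97.3) and 58.1, 69.8, 44.6, 73.1 and 90.1 at t2, where 1 library overlapped and it fell by 0.57 (0.0336). Atp5g3 read 137 to 160 CPM at baseline (median 147) and 125 to 154 at t0 (median 142), and was not called (-0.08, 0.03, -0.22 and 0.04).

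Atp5l, subunit g, rose at t0. It read 44.9 to 89.4 CPM at baseline (median 57.7) and 58.8 to 166 at t0 (median 109), with overlap. The log2 fold change was 0.77 (SE 0.27, edgeR adjusted p = 0.019), lost without t0 animal 332 or 359 (up to 0.0588) and without t0 357 and 359, t2 339, t4 371 and t6 349 and 365, which stand apart in the series (0.0666). At t2 it read 49.1, 43.4, 40.1, 43.4 and 74.1 CPM and was not called (-0.35). Atp5j2 and Atp5o, the latter the hinge between stalk and head, were not called.

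**Figure D4:**
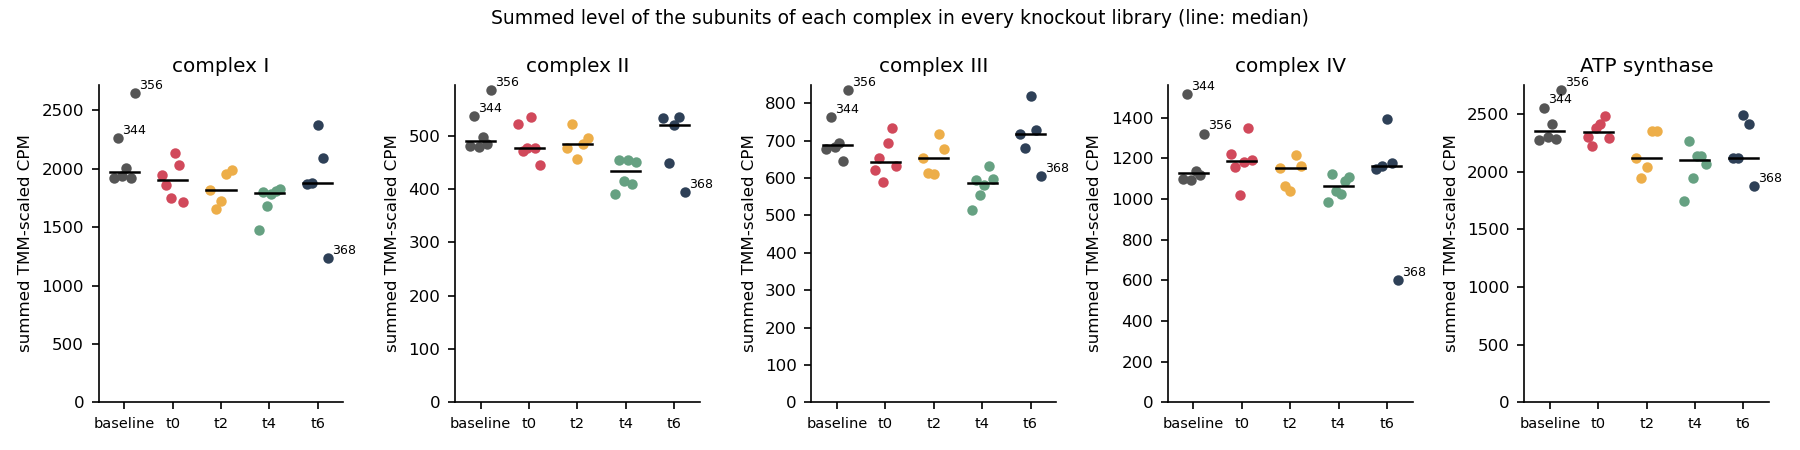
Summed TMM-scaled CPM of the subunits of each complex (y axis, from 0) in every knockout library by time group, with medians as lines; muscle forms, assembly factors and other isoforms are left out. Complex IV in t6 animal 368, at 603 CPM, lies below every other library; animals 344, 356 and 368 are marked.

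The CPM of all subunits of a complex were also summed in each library. Complex I subunits summed to 1921 to 2650 CPM at baseline (median 1971) and had medians of 1906, 1820, 1791 and 1881 at t0, t2, t4 and t6. Its t4 range of 1478 to 1827 lay wholly below baseline. Complex III summed to 645 to 834 CPM at baseline (median 688) and 516 to 633 at t4 (median 588), where no library reached baseline. Complex II at t4 (390 to 454 CPM) likewise lay below its baseline (478 to 587), and so did ATP synthase (1746 to 2270, against 2276 to 2708). Complex IV summed to 1095 to 1517 CPM at baseline (median 1130) and had medians of 1185, 1151, 1063 and 1162 later. All 90 members took 0.673% to 0.847% of TMM-scaled counts at baseline (median 0.691%), with medians of 0.675%, 0.646%, 0.629% and 0.668% later. As a share of raw counts the t0 median was 0.761%, above the 0.657% of baseline, so the direction at t0 depended on the scaling. The separation at t4 did so as well. The TMM-scaled share of all 90 members at t4 (0.535% to 0.648%) lay below baseline. Their raw share at t4 (0.440% to 0.683%) overlapped that of baseline (0.636% to 0.805%).

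Isoforms and relatives outside the main complexes were followed separately. Cox7a2l, a factor that joins complexes III and IV into supercomplexes, read 92.8 to 142 CPM at baseline (median 108) and 66.6, 73.0, 82.2, 77.2 and 63.4 at t2, all below baseline. At t4 it read 66.9 to 97.5 (median 76.9). It fell by 0.64 at t2 (SE 0.15, edgeR adjusted p = 0.00341) and 0.54 at t4 (0.14, 0.00793; under library totals 0.114). At t0, with 91.5 to 137 CPM, it was not called (95% interval of the log2 fold change -0.27 to 0.27). Atp5s, a factor related to ATP synthase coupling, read 9.17 to 13.7 CPM at baseline (median 10.9) and 4.05 to 7.70 at t0 (median 5.27), without overlap. It fell by 0.95 at t0 (0.18, 9.85e-05), and at t6 it read 13.7, 12.3, 11.6, 10.8 and 15.6 CPM, with 0.19 (0.593). Atp5sl was not called. Cox6b2, a form known from testis, read 2.96 to 6.79 CPM at baseline and 5.96 to 7.94 at t0, with 0.58 (0.129).

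The forms linked to low oxygen were scarce. Cox4i2 held 124 counts and Ndufa4l2 180 over all 28 libraries, above 0 in 23 and 25 of them. In wild-type airway they stood at 0.237 and 0.36 TPM, where Cox4i1 and Ndufa4 stood at 389 and 171. Cox7b2 had 1 count and Cox8c 0 in all.

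Set against t0 in place of baseline, 2 members rose and 8 fell at t2 (15.7% and 14.2% of all genes), 3 rose and 13 fell at t4 (15.9% and 17.5%), and 9 rose and 9 fell at t6 (18.2% and 20.5%, or 38.7% together). All libraries lay below those of t0 for 2 members at t2 (6.89% of all genes), 6 at t4 (8.84%) and 4 at t6 (12%), and above for 0 (5.78%), 1 (9.21%) and 2 (11%). Medians were 0.02, -0.05 and 0.07, beside -0.02, -0.06 and -0.06 for all genes. These comparisons share the t0 libraries, and the count at t2 was 5 without t0 animal 374 and 6 without t2 animal 339. Ndufa4 fell from t0 by 0.76, 1.14 and 0.91 at t2, t4 and t6 (edgeR adjusted p = 0.0172, 0.000291 and 0.00394), with no overlap at t4. Uqcrc1 fell from t0 by 0.61 at t4 (0.000109) and 0.42 at t6 (0.00618). Ndufa10 fell by 0.41, 0.72 and 0.59 (0.0151, 3.25e-05 and 0.000612), from 69.4 to 91.9 CPM at t0, with no overlap at t4 or t6. In the other direction Atp5s rose from t0 by 0.49, 0.70 and 1.14 (0.0493, 0.00302 and 2.24e-05), with every t6 library above every t0 library. Cox7b rose from t0 at t6 by 0.46 (0.00696) and Atp5j by 0.60 (0.0039).

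Over the 5 time groups, 43 of 86 members differed in the F test (50%), where 56.8% of all genes did. After Cox7b, the smallest adjusted p-values were those of Atp5s (0.000108), Ndufa10 (0.000121), Ndufs1 (0.000163) and Uqcrh (0.000227).

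Members have short transcripts, with a median effective length of 576 bases against 2191 for all genes tested. The 323 tested genes under 500 bases had median log2 fold changes of -0.25, -0.31, -0.25 and -0.13 at t0, t2, t4 and t6, and the 31 members among them -0.42, -0.26, -0.33 and -0.17. From 500 to 1000 bases, 1572 genes had -0.05, -0.05, -0.04 and 0.03 and 33 members -0.33, -0.18, -0.25 and -0.13. From 1000 to 2000 bases, 4633 genes had 0.05, 0.03, 0.03 and 0.02 and 19 members -0.25, -0.09, -0.31 and -0.15.

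Other lists of mitochondrial genes lie outside the naming rule, and their counts are to be read against the shares of all genes that fell (22.3%, 8.73%, 9.56% and 4.29% at t0, t2, t4 and t6) and rose (23.3%, 11.2%, 10% and 4.54%). The first holds other parts of the chain. Of 11 such genes, 4 fell and 1 rose at t0, 4 fell and 1 rose at t2, 5 fell at t4 and 3 fell at t6. The shares that fell were 36.4%, 36.4%, 45.5% and 27.3%, each above that of all genes, and the median log2 fold changes -0.17, -0.19, -0.12 and -0.26. Etfa, a subunit of the flavoprotein that feeds electrons from fatty acid oxidation to ubiquinone, read 73.1 to 125 CPM at baseline and 29.5 to 61.1 at t0. It fell by 1.13 at t0 (edgeR adjusted p = 4.74e-05), 0.97 at t2 and 0.97 at t4. Etfdh, which receives those electrons, fell by 0.81 at t2 and 0.78 at t4. Higd1a, a small partner of complex IV, went from 40.4 to 63.4 CPM at baseline to 15.6 to 24.6 at t0 and fell by 1.28, with 1.14 at t4 and 0.88 at t6. Usmg5, a small subunit of ATP synthase, fell by 1.47 at t0, 1.49 at t2 and 1.06 at t6.

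Of 36 assembly factors outside the rule, 11 fell and 0 rose at t0, 2 fell and 1 rose at t2, 4 fell and 1 rose at t4, and 1 fell and 1 rose at t6. The share that fell was 30.6% at t0, against 22.3% of all genes, and 5.56% at t2, below the 8.73% of all genes. The medians were -0.16, -0.07, -0.22 and -0.13. Pet100, which helps to build complex IV, fell by 0.76 at t0 and 1.11 at t2, and Nubpl, which inserts iron-sulphur clusters into complex I, by 0.88 at t0. Sco2, which delivers copper to complex IV, rose by 1.24 at t2 and 1.79 at t4 (edgeR adjusted p = 0.0124 and 0.000582). It overlaps Tymp and Ncaph2, so its counts are uncertain.

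Of 14 regulators of mitochondrial biogenesis, 5 rose and 2 fell at t0, 3 rose and 2 fell at t2, 2 rose and 2 fell at t4, and 0 changed at t6. At t0, 35.7% rose, against 23.3% of all genes, and 14.3% fell, against 22.3%. The medians were -0.03, 0.13, 0.02 and -0.12. Esrra, an orphan nuclear receptor acting on respiratory genes, read 22.2 to 35.7 CPM at baseline and 45.3 to 98.0 at t0, a rise of 1.12 (edgeR adjusted p = 0.000554). Peo1, the mitochondrial DNA helicase, rose by 0.84 at t0 and 0.69 at t2, and Polrmt, the mitochondrial RNA polymerase, by 0.63 and 0.75. Pprc1, a coactivator, rose by 0.69 at t2 and 0.75 at t4.

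Of 16 citric acid cycle enzymes, 7 fell and 2 rose at t0, 3 fell at t2, 5 fell at t4 and 2 fell at t6. The shares that fell were 43.8%, 18.8%, 31.2% and 12.5%, and the medians -0.29, -0.04, -0.17 and -0.17. Suclg1 and Suclg2, subunits of succinyl-CoA ligase, fell at t0 by 0.78 and 0.62, while Cs, citrate synthase, rose by 0.41. Cs read 133 to 164 CPM at baseline and 170 to 220 at t0, without overlap. Suclg2 also fell by 0.74 at t2 and 0.77 at t4, and Dld by 0.92 at t2. Of 40 mitochondrial ribosomal proteins, 3 rose and 3 fell at t0, 3 rose and 3 fell at t2, 2 fell at t4 and 1 fell at t6. At t0 that is 7.5% each way, below the 23.3% and 22.3% of all genes. Of 16 genes of membrane transport, 3 fell and 1 rose at t0, 4 fell and 1 rose at t2, 3 fell and 1 rose at t4 and 1 fell at t6. At t0, 18.8% fell, below the 22.3% of all genes. The channel gene Vdac3 fell by 0.86, 0.84 and 0.64 at t0, t2 and t4, and the import subunit Tomm7 by 1.34 at t0 and 1.08 at t2.

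Among the muscle forms of complex IV, Cox6a2 rose and Cox8b and Cox7a1 were called in fewer comparisons. Cox6a2, the heart and skeletal muscle form of subunit 6a (chromosome 7, 128205435 to 128206367), was at 0 in 5 baseline libraries and at 0.0693 CPM, or 2 counts, in animal 345. At t0 the libraries read 0 to 2.08 CPM (median 0.587), at t2 0.912, 2.30, 2.37, 2.30 and 13.7, at t4 0.123 to 1.08 (median 0.785), and at t6 5.97, 0.184, 9.36, 17.1 and 13.6. Every t2, t4 and t6 library lay above every baseline library. Summed counts were 114, 536, 83 and 1511 against 2 at baseline, ratios of 61.5 (95% interval 16.6 to 514), 308 (84.9 to 2551), 52.4 (14.1 to 440.1) and 735 (203 to 6073) after scaling to depth, with intervals that cover counting error only. The rises from the shared baseline at t0, t2, t4 and t6 passed the test (edgeR adjusted p = 0.000559, 0.000129, 0.00374 and 3.86e-05), and with limma voom the calls at t0 (0.186) and t4 (0.116) were lost. No baseline library reached 1 CPM, so Cox6a2 passed the count filter only through exposed libraries. These p-values are therefore not independent evidence of a rise. The ubiquitous form Cox6a1 read 153 to 197 CPM at baseline and was not called.

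Cox8b, the muscle and brown fat form of subunit 8, read 0.154 to 3.54 CPM at baseline (median 0.735), where animal 344 held the 3.54. At t0 it read 1.00 to 6.19 (median 1.73), at t2 1.03, 0.291, 1.75, 1.11 and 10.5, at t4 0.245 to 3.32 (median 0.976), and at t6 6.36, 1.53, 12.3, 9.47 and 7.49. At t6, 4 of 5 libraries exceeded all of baseline, with a log2 fold change of 2.73 (SE 0.77, edgeR adjusted p = 0.0245). That call was lost without baseline animal 343, 345 or 356 or t6 animal 365 (up to 0.0627), and the other times were not called. Cox7a1, the muscle form of subunit 7a, read 0.772 to 2.41 CPM at baseline (median 1.37) and was not called against it. At t2 it read 0.608, 9.74, 0.825, 1.15 and 2.92 and at t6 3.87, 0.918, 4.95, 3.01 and 2.96. Against t0 it rose by 1.66 at t2 (adjusted p = 0.0361), which was 0.50 (0.49) without t2 animal 339, and by 1.70 at t6 (0.0255), lost without t0 332 or t6 341 or 365.

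**Figure D5:**
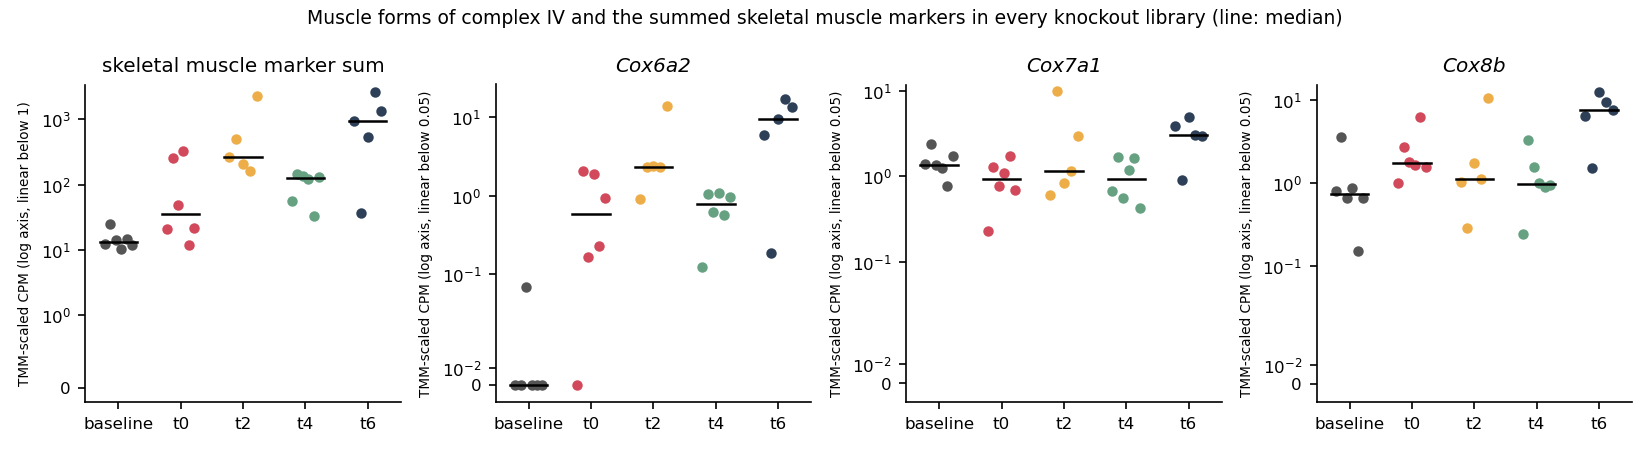
The left panel shows the summed TMM-scaled CPM of 16 skeletal muscle markers and the other panels the 3 muscle forms of complex IV in every knockout library by time group, on log axes that turn linear near 0, with medians as lines. The marker sum and Cox6a2 are both highest at t6 and in t2 animal 360, and t6 animal 349 is the lowest of its group in all panels.

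Most markers of skeletal muscle rose from baseline at t0, t2, t4 and t6, as Cox6a2 did. Against baseline, Cox8b was called only at t6 and Cox7a1 at no time. The 16 markers summed to 10.4 to 25.2 CPM at baseline (median 13.2), 12 to 326 at t0 (median 35.1), 164 to 2239 at t2 (median 268), 33.2 to 147 at t4 (median 126), and at t6 36.7 to 2579 (median 953). Of them 14, 16, 14 and 16 rose at t0, t2, t4 and t6, and 1 was at 0 throughout baseline. Ckm, muscle creatine kinase, read 0 to 0.438 CPM at baseline and 1.13 to 319 at t6, and the fast myosin Myh4 0 to 0.804 and 1.16 to 358. Like Cox6a2, these genes passed the count filter only through exposed libraries. In t6 animal 349 the marker sum was 36.7 CPM and Cox6a2 0.184, while t2 animal 360 had 2239 and 13.7. Heart markers summed to 26.2 to 111 CPM at baseline and 42.5 to 66.4 at t6, where the heart myosin Myh6 was at most 0.462. Fat markers summed to 15.6 to 42.4 CPM at baseline, 33.4 to 222 at t0, and 23.2 to 282 at t2. At t4 the sum was 34.2 to 191, and at t6 it was 59.2 to 363. The part of muscle or fat RNA in the levels of Cox6a2, Cox8b and Cox7a1 was not tested. In wild-type baseline libraries the muscle forms stood at 2.58 ± 3.54 TPM (Cox6a2), 3.32 ± 4.21 (Cox8b) and 7.14 ± 4.00 (Cox7a1), SD with n = 6.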

How the data were processed

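Tracheal epithelium of 28 Gprc5a-/- mice was profiled by poly-A RNA sequencing, with 6 wild-type libraries beside them. The knockout table deposited by the authors is named for RPKM, but per the file's values it holds estimated counts: 76.3% of values above 0 were whole within 0.01, and they were rounded before testing. The submitters' processing notes name, for the knockout libraries, Partek, Bowtie2 2.1.0, STAR 2.4.1d and the mm10 build, and GRCm38, STAR 2.7.0f and RSEM 1.3.1 for the wild-type ones. Strand use in counting and the Partek version are not given in the sources used here. Wild-type TPM values and transcript lengths (the RSEM effective length in bases) are those deposited by the authors. Poly-A selection and short transcripts can lower counts where RNA is degraded, and pseudogene copies or overlapping genes (14 of 93 members) leave some counts uncertain.

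A gene was tested if 5 or more libraries reached 1 CPM. All 5 groups were fitted together with edgeR 4.0.16 (R 4.3.3, TMM, quasi-likelihood test), without covariates, and p-values were adjusted by Benjamini-Hochberg over all 14847 genes, with a threshold of 0.05. Alternatives used limma 3.58.1, DESeq2 1.42.0, other scalings and filters, a loess length correction (span 0.3, lengths for 14552 genes) and left-out libraries. Scripts were tested on simulated data. Tables and figures used Python 3.11.15, pandas 2.3.3, numpy 2.4.6, scipy 1.17.1 and matplotlib 3.10.9. Depth was 15.63 to 37.61 M counts per knockout library, and no 2 replicates agreed within sampling noise.

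Named genes were, in each comparison with baseline, up to 8 called members with the smallest p in each direction, the 5 smallest p in the F test, each muscle form and isoform pair, the complex II subunits and Cycs, and up to 3 genes of a pathway list where at least 3 were called. Further members were named after their values were seen. Members and lists were chosen with earlier results of these data known.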

Additional observations from a re-analysis of the deposited data

Results flagged for a closer look

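In 17 of 140 groups of 4 to 10 libraries, 1 library lay far from the others by Dixon's criterion, which chance meets in about 1 in 20 groups. Values are TMM-scaled CPM. At baseline, animal 356 was high for Ndufa10 (87.2, others 59.8 to 68.7), Ndufa8 (51.9, others 40.7 to 44.9) and Ndufb11 (152, others 98.8 to 108). Baseline animal 344 was high for Ndufb4 (69.4, others 21.5 to 34.3) and Cox8b (3.54, others 0.154 to 0.873), and baseline animal 345 held the only Cox6a2 counts (0.0693, others 0). At t0, animal 374 was high for Cox8b (6.19, others 1.00 to 2.69).

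At t2, animal 339 was low for Atp5a1 (432, others 468 to 483) and high for Ndufa4 (155, others 98.3 to 109) and Cox7a1 (9.74, others 0.608 to 2.92). Animal 360 was high for Atp5l (74.1, others 40.1 to 49.1), Cox6a2 (13.7, others 0.912 to 2.37) and Cox8b (10.5, others 0.291 to 1.75). At t6, animal 368 was low for Atp5k (11.4, others 18.5 to 20.9), Ndufa4 (26.5, others 108 to 138) and Ndufb4 (6.11, others 16.8 to 20.2), and high for Cox7a2l (158, others 93.5 to 106).

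The difference from baseline was not the same at t0 and later for some members, by the edgeR test of the later group against t0. These were 10 members at t2 (11.6%), 16 at t4 (18.6%) and 18 at t6 (20.9%). Each share was below that of all genes tested (29.9%, 33.4% and 38.7%).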

How the results depend on the processing

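The counts of called members depended on the libraries and the scaling. With library totals they were 19 at t0 (33 as reported), 13 at t2 (25), 7 at t4 (20) and 2 at t6 (5). Without baseline 344 and 356 and t6 368, chosen after seeing the data, they were 21, 13, 8 and 1. With only the groups compared they were 34 at t4, where 15.1% of all genes fell and 14.4% rose, 3 at t6 (5.95% and 7.27%) and 5 for t2 against t0 (10 as reported). With limma voom they were 32 at t4, where 18.3% of all genes fell and 17.9% rose. At t6 they were 12 (9 falls, 10.5%, and 3 rises, 3.49%), fewer than the 13.4% and 12.1% of all genes. With RLE factors and with no low-count filter 3 were called at t6, and with no filter 6 for t2 against t0. Leaving out 1 library gave 23 to 43 at t0, 16 to 27 at t2, 12 to 28 at t4 and 1 to 8 at t6. Against t0 it gave 5 to 13 at t2, 13 to 20 at t4 and 12 to 21 at t6, and the F test gave 35 to 58 (43 as reported). For these ranges too, the shares of all genes called are not given here. No named call turned its direction past the threshold in the alternatives run. The balance of rises and falls did turn: at t0, 28 falls and 5 rises became 7 falls and 12 rises with library totals. At t6, 5 falls and 0 rises became 0 falls and 1 rise without baseline 344 and 356 and t6 368. No paired analysis was possible because each animal number occurs in 1 group only. Low-count members such as Cox6a2 at baseline are limited by counting error.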

Other observations

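AA467197, a relative of Ndufa4 outside the naming rule, was looked at after its values were seen. It read 0.0365 to 0.936 CPM at baseline and 1.60 to 15.5 at t0, without overlap, a rise of 3.61 on the log2 scale (SE 0.90, edgeR adjusted p = 0.00174). No baseline library reached 1 CPM, so AA467197 passed the count filter only through exposed libraries. Its later differences of 0.65, 0.78 and 2.05 at t2, t4 and t6 were not called.

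Transcripts of the mitochondrial genome were listed in the wild-type table and are not analysed in the knockout libraries. There mt-Co1, a catalytic subunit of complex IV, stood at 7194 ± 1557 TPM (SD, n = 6), mt-Atp8 at 7568 ± 1780, mt-Nd4 at 3867 ± 882 and mt-Cytb at 3655 ± 800. mt-Co3 ranged from 0.21 to 4200 TPM between libraries.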
